A study of Mus musculus with 4 samples.

Results

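The genes described here handle cholesterol and lipoproteins in macrophages and are controlled in large part by the oxysterol receptor LXR. They were chosen by symbol as a list of 10 (Apoe, Abca1, Abcg1, Nr1h3, Pparg, Lpl, Apoc1, Pltp, Trem2 and Gpnmb), and all 10 of them were found among the 23284 gene symbols of the deposited tables. RNA was sequenced from EGFP+ cells sorted back from the bone marrow of recipient mice 24 h after they had received 100000 LSK cells. LSK cells are the Lin- Sca1+ c-Kit+ marrow fraction that contains stem and multipotent progenitor cells, and here they came from donors carrying EGFP under the CAG promoter, which is active in nearly all cell types. Both groups of wild-type recipients were thus given the same kind of donor cells. The control recipients had no treatment, and the 5-FU recipients had been injected intravenously with 200 mg/kg of 5-fluorouracil, a pyrimidine analog that kills dividing cells, 2 days before the transplant. Each group had 2 libraries, labelled as biological replicates, and the protocol has the EGFP+ cells sorted separately for every recipient. The labels used here give no age, and they do not say whether recipients shared a pool of donor cells.

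Macrophages take up lipid from dying cells and lipoproteins, break it down in lysosomes and export the surplus cholesterol. Oxysterols activate LXR, which pairs with RXR and raises transcription of cholesterol transporters and apolipoproteins. PPARgamma is a fatty acid sensor that induces lipid uptake genes and, in macrophages, the gene of LXRalpha itself. Marrow macrophages engulf senescent blood cells and expelled erythroblast nuclei, so lipid export is part of their routine work.

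The deposited values are FPKM, fragment counts scaled by transcript length and library size, and levels of different genes are compared only on that scale. The value of a lone read was estimated from chosen low values, in 92 to 112 genes with a single annotated transcript per library. It implied roughly 6910000 and 7160000 reads for the controls and 8360000 and 8750000 for the 5-FU libraries. These numbers depend on that choice and on a library normalization that was not given. Whether depth differed between the groups was not tested. The sorted cells carry the label of hematopoietic stem and progenitor cells. Kit, the receptor used to sort the donors, had 65.5 to 102.8 FPKM in the 4 libraries, while C1qb, a complement gene typical of macrophages, had 1718 to 4587. Macrophage transcripts were therefore abundant in all 4 libraries. In such bulk samples fewer cells of a type and less RNA per cell cannot be told apart.

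Of the 10 genes, 8 had both 5-FU values below both control values, with differences from -0.76 to -1.09 on the log2 scale (of FPKM + 1, as for all differences given here). Across the 11496 genes tested, 30.7% were lower without overlap in that way, and 31.4% were higher without overlap, as 0 of the 10 were. Pparg, Pltp, Abca1 and Nr1h3 fell, 4 of 10, where limma with Benjamini-Hochberg adjustment called 4.67% of all tested genes lower and 12.9% in either direction. In limma 0 of 10 rose, against 8.23% of all tested genes, and 0 of the higher members had an unadjusted p under 0.05, against 5 of the lower ones. Trem2 and Gpnmb were the 2 genes whose groups overlapped. All 10 passed the filter of at least 1 FPKM in 2 libraries. The median difference over the 10 was -0.84, beside -0.01 over all tested genes.

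**Figure D1:**
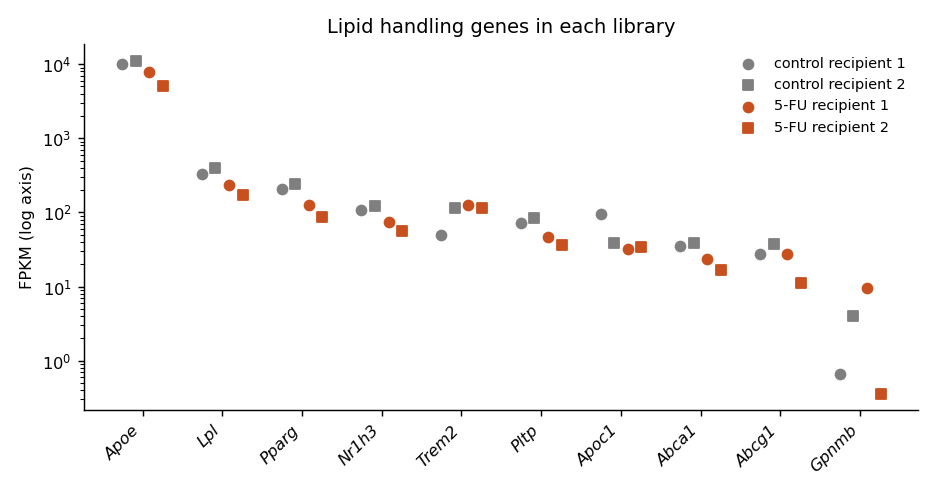
FPKM of the 10 lipid handling genes (log axis) in each of the 4 libraries, ordered by control mean. Circles are replicate 1 and squares replicate 2 of a group, grey for control and orange for 5-FU. Apoe stands far above the other members, and the orange points lie below the grey ones for every gene except Trem2 and Gpnmb.

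Promoter sequences are shown for the 4 genes that fell and for Trem2, which did not, so that their makeup can be compared. They were taken from RefSeq (GRCm38.p6, the build to which mm10 corresponds), which gave entries for 7 of the 10 genes, and each runs 5′ to 3′ over the 250 bases before a transcription start. Pparg has 3 listed starts and Nr1h3 2, and the tables do not tell which of them is used. The start shown for Pparg is the middle entry, which held the most matches (4, against 2 and 0). For Nr1h3 it is the upstream one of those listed. Both listed Nr1h3 starts lie inside its interval, which runs to 91202829 on the minus strand, and no entry was given for that end. Capitals mark matches on either strand.
Abca1, chr4:53159896-53160145, minus strand: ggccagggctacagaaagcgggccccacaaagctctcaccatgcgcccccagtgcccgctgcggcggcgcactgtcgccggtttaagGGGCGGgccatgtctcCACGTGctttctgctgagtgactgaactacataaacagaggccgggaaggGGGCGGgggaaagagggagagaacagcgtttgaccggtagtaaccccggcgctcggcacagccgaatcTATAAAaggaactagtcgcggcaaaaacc
Nr1h3, chr2:91195117-91195366, minus strand: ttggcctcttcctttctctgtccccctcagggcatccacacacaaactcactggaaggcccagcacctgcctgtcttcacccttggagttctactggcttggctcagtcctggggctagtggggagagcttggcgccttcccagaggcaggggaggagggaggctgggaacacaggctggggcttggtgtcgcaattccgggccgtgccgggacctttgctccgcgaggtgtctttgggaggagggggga
Pltp, chr2:164857709-164857958, minus strand: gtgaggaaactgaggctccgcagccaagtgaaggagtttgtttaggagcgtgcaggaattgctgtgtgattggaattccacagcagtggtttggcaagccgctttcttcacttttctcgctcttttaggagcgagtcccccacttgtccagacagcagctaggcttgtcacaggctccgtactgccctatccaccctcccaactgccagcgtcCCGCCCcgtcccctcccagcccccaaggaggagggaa
Pparg, chr6:115362099-115362348, plus strand: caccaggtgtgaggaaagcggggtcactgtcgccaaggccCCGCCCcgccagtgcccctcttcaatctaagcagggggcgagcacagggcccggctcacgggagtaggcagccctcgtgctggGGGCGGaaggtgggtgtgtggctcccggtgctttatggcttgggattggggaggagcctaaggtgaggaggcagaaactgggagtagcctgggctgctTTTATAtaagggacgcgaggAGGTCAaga
Trem2, chr17:48346151-48346400, plus strand: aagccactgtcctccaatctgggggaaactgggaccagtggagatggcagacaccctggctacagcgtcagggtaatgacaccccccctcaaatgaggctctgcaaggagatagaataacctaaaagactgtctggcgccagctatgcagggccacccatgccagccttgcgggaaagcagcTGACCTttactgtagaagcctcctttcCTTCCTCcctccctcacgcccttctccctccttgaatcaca

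The motifs searched, on both strands and from 250 bases before to 50 after a start, were AGGTCA (the hexamer that nuclear receptors read), the same hexamer repeated with 4 bases between (DR4, the LXR arrangement) or with 1 base between (DR1, the PPAR arrangement), GAGGAAG (a PU.1 core), CACGTG (E-box), TCACATG (M-box core), TATAAA and GGGCGG (GC box). DR4 and DR1 contain the hexamer and so overlap with it. No exact DR4 or DR1 was present in the 12 member promoters, and only 0.0152% and 0.0396% of all 32851 promoters held them. Repeats that differ from these letters at any base were not counted. A promoter without a match, that of Abca1 included, may therefore still hold a receptor site. The hexamer occurred in 3 of the 12, those of Trem2 and the upstream and middle Pparg starts, against 16.3% of all promoters. In the Pparg sequence printed it lies at -9 to -4, with TATAAA at -29 to -24 on the opposite strand and GC boxes at -210 and -127. In Trem2 the hexamer lies at -68 to -63 on the opposite strand. Trem2 also held the PU.1 core at -41 to -35 on the opposite strand, a motif in 13.6% of all promoters. The downstream start of Nr1h3, which is not printed, held that core at 11 to 17 bases after the start. Abca1 carried TATAAA at -29 to -24, an E-box at -147 and GC boxes at -163 and -97, where 13.6%, 7.15% and 35.7% of promoters hold these motifs. The Pltp sequence held a GC box at -37 to -32, with TATAAA at 37 to 42 bases after the start, past the printed stretch, and the Nr1h3 sequence printed held none of the motifs. The match is of letters in this window and was not tested for binding.

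Of the nuclear receptors among the 10, both Pparg and Nr1h3 fell. Pparg, which encodes PPARgamma and is found on chromosome 6 at 115360879 to 115490404, measured 204.4 and 244.9 FPKM in control recipients 1 and 2. In 5-FU recipients 1 and 2 it measured 125.5 and 87.4, so every 5-FU value was below every control value. Its means were 224.6 ± 28.6 and 106.5 ± 27.0 FPKM (SD, n = 2 each), and its log2 difference was -1.09 (SE 0.23, 95% interval -1.63 to -0.54, limma adjusted p = 0.0274). This was the largest fall of the 10. Nr1h3, the gene of LXRalpha on chromosome 2 at 91184061 to 91202829, had 106.5 and 122.4 FPKM in controls and 75.3 and 55.7 after 5-FU. The groups did not overlap, and the log2 difference of -0.81 (SE 0.22) passed narrowly in limma, with an adjusted p of 0.0496. Nr1h2, the gene of the more widely expressed LXRbeta, had 51.3, 43.8, 45.9 and 50.7 FPKM in the same order of libraries, with a log2 difference of 0.02 (SE 0.20, limma adjusted p = 0.944). Nr1h3 was thus at 208% and 279% of the Nr1h2 level in control libraries and at 164% and 110% in 5-FU libraries.

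Of the cholesterol transporters, Abca1 fell and Abcg1 did not pass. Abca1 encodes the pump that loads cholesterol onto lipid-poor apolipoproteins and lies on chromosome 4 at 53030789 to 53159988. It had 34.9 and 38.9 FPKM in controls and 23.2 and 16.6 after 5-FU, without overlap. The log2 difference was -0.87 (SE 0.23, limma adjusted p = 0.0487). Abcg1, which exports cholesterol to mature HDL and lies on chromosome 17 at 31057694 to 31117984, had 27.5 and 37.0 FPKM in controls and 27.1 and 11.2 after 5-FU. Control recipient 1 and 5-FU recipient 1 were nearly level, and the difference of -0.83 (SE 0.38) did not pass (limma adjusted p = 0.185). It was -1.43 without 5-FU replicate 1 (limma adjusted p = 0.00156) and -0.23 without 5-FU replicate 2 (adjusted p = 0.543).

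Apoe encodes apolipoprotein E, the main lipoprotein component that macrophages secrete. It was the most abundant of the 10 in every library, with 9955 and 11157 FPKM in control recipients and 7743 and 5005 in 5-FU recipients. It ranked 4th and 3rd among all genes in the control libraries and 4th and 6th in the 5-FU libraries, and made up 1.46% and 1.65% of the summed FPKM against 1.14% and 0.657%. The 5-FU values lay below the control values but were 1.55-fold apart from each other. The means were 10556 ± 850.4 and 6374 ± 1936 FPKM (SD, n = 2 each), and the log2 difference of -0.76 (SE 0.46, 95% interval -1.83 to 0.31) did not pass in limma (adjusted p = 0.295). It was -1.07 and passed without 5-FU replicate 1 (limma adjusted p = 0.0126), and was -0.44 without 5-FU replicate 2 (adjusted p = 0.341). A comparison with the other tested genes of at least 5 FPKM on average found Irak2, Fcgr3, Mpeg1, Itgb2 and Cd300a closest to Apoe over the 4 libraries. Their root-mean-square distances were 0.012 to 0.023 on the log2 scale after centring each gene. Among the members Nr1h3, Abca1 and Lpl were nearest, at 0.076, 0.084 and 0.088, and Trem2 and Gpnmb were farthest, at 0.82 and 1.1.

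Apoc1 lies beside Apoe on chromosome 7, at 19689480 to 19692659 with Apoe at 19696244 to 19701310, and encodes a small apolipoprotein that modulates lipoprotein enzymes. It had 96.7 and 38.9 FPKM in control recipients and 31.7 and 34.1 in 5-FU recipients. Control recipient 1 stood apart, and control recipient 2 was only slightly above the 5-FU libraries. The difference of -0.88 (SE 0.38) did not pass (limma adjusted p = 0.160). It was -0.24 without control replicate 1 and -1.53 without control replicate 2 (adjusted p of 0.780 and 0.0609 in limma). Apoc1 was at 0.971%, 0.349%, 0.409% and 0.682% of the Apoe level in control 1, control 2, 5-FU 1 and 5-FU 2, so the neighbours did not keep a fixed ratio.

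Of the other genes of that stretch of chromosome 7, 1 passed the test and it was higher. Tomm40, a mitochondrial import channel gene whose interval begins 3 bases past that of Apoe in RefSeq, had 25.6 and 25.7 FPKM in controls and 74.9 and 92.0 after 5-FU. It rose by 1.66 (SE 0.20, limma adjusted p = 0.00853). Apoc2, the activator of lipoprotein lipase, had 15.4, 13.03, 28.5 and 9.42 FPKM in the library order above, and Apoc4 had 2.54, 4.40, 6.66 and 3.50. Both overlapped between the groups. Relb, an NF-kappaB subunit gene, had 12.7 and 16.2 FPKM in controls and 10.01 and 9.25 after 5-FU, lower without overlap, but its difference of -0.53 did not pass (limma adjusted p = 0.190). The differences of Pvrl2 (Nectin2) and Clptm1 were 0.36 and -0.06, and neither passed. Bcam stayed at 0.194 to 1.18 FPKM and was not tested.

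Pltp and Lpl act on lipoproteins outside the cell. Pltp encodes the phospholipid transfer protein and lies on chromosome 2 at 164839518 to 164857708. It had 71.5 and 84.9 FPKM in controls and 46.8 and 36.2 after 5-FU, without overlap, and fell by 0.90 on the log2 scale (SE 0.21, limma adjusted p = 0.0354). Ctsa, a lysosomal protease gene, overlaps 495 of the 2562 exonic bases of Pltp (19.3%, GENCODE M21) on the opposite strand. Since the strand setting of the counting was not given in the sources used here, reads in the shared stretch cannot be told apart. Ctsa had 336.0 and 426.4 FPKM in controls and 240.8 and 173.4 after 5-FU (log2 difference -0.89, limma adjusted p = 0.0527). It was thus well above Pltp in every library. How much of the Pltp values, and of their fall, came from Ctsa reads was not tested.

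Lpl, lipoprotein lipase, lies on chromosome 8 at 68880555 to 68906932 and had the highest level of the 10 after Apoe. Control recipients had 334.1 and 398.4 FPKM and 5-FU recipients 235.6 and 174.3. The groups did not overlap, yet the difference of -0.85 (SE 0.23, 95% interval -1.38 to -0.31) just missed the threshold in limma, with an adjusted p of 0.0518. It passed without 5-FU replicate 1 (-1.06, adjusted p = 0.00121) and without 5-FU replicate 2 (-0.63, adjusted p = 0.0331), but not without control replicate 1 (-0.97, adjusted p = 0.278) or 2 (-0.72, adjusted p = 0.434).

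Trem2 did not share the lower values. It encodes a receptor for lipids and lipoproteins on macrophages and microglia that signals through the adaptor TYROBP, and lies on chromosome 17 at 48346401 to 48352276. It had 49.3 and 114.1 FPKM in control recipients and 125.3 and 114.1 in 5-FU recipients. Control recipient 1 was low, while control recipient 2 matched 5-FU recipient 2. The log2 difference was 0.66 (SE 0.36, 95% interval -0.17 to 1.49) and did not pass (limma adjusted p = 0.241). Without control replicate 1 it was 0.07 (adjusted p = 0.95), and without control replicate 2 it was 1.26 (adjusted p = 0.115). Tyrobp itself had 2134 and 2253 FPKM in controls and 1268 and 934.3 after 5-FU (log2 difference -1.01, SE 0.29, limma adjusted p = 0.0588). The Trem2 level was therefore 2.31% and 5.07% of the Tyrobp level in control libraries and 9.88% and 12.2% in 5-FU libraries, a ratio without overlap that was chosen after the values were seen.

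Gpnmb encodes a lysosomal and surface glycoprotein of lipid-laden macrophages and lies on chromosome 6 at 49036518 to 49058182. It was the lowest of the 10, at 0.653 and 4.01 FPKM in controls and 9.47 and 0.361 after 5-FU. Control recipient 2 and 5-FU recipient 1 were the high libraries, 1 from each group. From the length of its longest coding transcript, these values correspond to roughly 17, 110, 290 and 12 reads, so the low libraries rest on few reads. The difference of 0.39 (SE 0.91, limma adjusted p = 0.805) was -1.08 without 5-FU replicate 1, -0.41 without control replicate 1, 1.19 without control replicate 2 and 1.86 without 5-FU replicate 2, the last with an adjusted p of 0.0489.

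**Figure D2:**
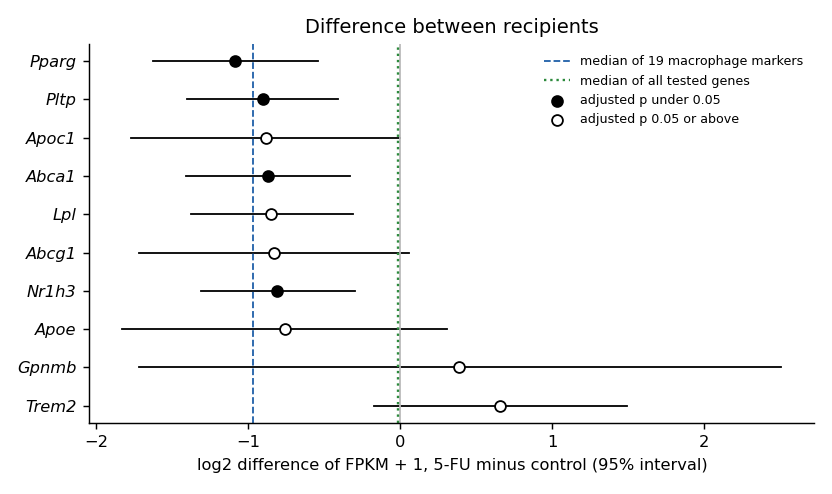
Log2 difference of FPKM + 1 between 5-FU and control recipients for each gene (point) with its 95% limma interval (line); filled points have an adjusted p under 0.05, the dashed line is the median of the 19 macrophage markers at -0.97 and the dotted line that of all tested genes at -0.01. The 8 lower genes lie between -0.76 and -1.09, near the dashed line, and the intervals of Apoe, Abcg1, Apoc1, Trem2 and Gpnmb reach or cross 0.

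The calls depended on the libraries and settings used, for the 10 genes as across the whole table. With control replicate 1 or 2 left out, the calls of Pparg, Pltp, Abca1 and Nr1h3 were lost. The differences stayed negative, at -1.22 and -0.96 for Pparg and -1.03 and -0.78 for Pltp. They were -0.95 and -0.8 for Abca1 and -0.91 and -0.71 for Nr1h3. With no filter on low values limma called 0 of the 10, beside 4 lower and 3 higher of 16391 genes. Without the mean-variance trend it called 0 of the 10, beside 299 lower and 548 higher of 11496 genes. In these settings 5 and 6 of the lower members had an unadjusted p under 0.05.

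Most of the 10 genes shared an order of the libraries that takes in the group difference. Apoe, Abca1, Abcg1, Nr1h3, Pparg, Lpl and Pltp, 7 of 10, were highest in control recipient 2, then control recipient 1, 5-FU recipient 1 and 5-FU recipient 2, an order seen in 11.5% of all tested genes. The order requires both 5-FU values to lie below both control values, as in 30.7% of all tested genes. It therefore repeats in part the group difference given above. Of the 19 macrophage markers 9 had that order. The macrophage markers had a median difference of -0.97, 5 fell and 14 were lower without overlap. The 5 were Timd4, Cd14, Csf1r, Mrc1 and Spic, and 0 of the 19 rose, none of them at an unadjusted p under 0.05. Their summed level was 25218 and 29372 FPKM in controls and 21754 and 11312 after 5-FU, with Vcam1, Slc40a1, C1qb, Hmox1 and C1qc making up 76.9% to 80.7% of it.

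Set against that sum, Apoe, Abca1, Nr1h3, Lpl and Pltp were below both controls in 5-FU recipient 1 and above both in 5-FU recipient 2. Apoe was at 39.5 and 38.0 FPKM per 100 FPKM of summed macrophage markers in control and 35.6 and 44.2 in 5-FU recipients. Lpl was at 1.32 and 1.36 against 1.08 and 1.54, and Nr1h3 at 0.422 and 0.417 against 0.346 and 0.492. Abca1 was at 0.139 and 0.132 against 0.107 and 0.147, and Pltp at 0.284 and 0.289 against 0.215 and 0.32. Abcg1 and Apoc1 overlapped between the groups, at 0.109 and 0.126 against 0.125 and 0.0992 and at 0.383 and 0.133 against 0.146 and 0.302. Gpnmb, at 0.00259 and 0.0137 against 0.0435 and 0.00319, overlapped too. Pparg was at 0.811 and 0.834 against 0.577 and 0.773, the ratio being lower in both 5-FU libraries. Trem2 was at 0.195 and 0.389 against 0.576 and 1.01, higher in both. These ratios are a description and move with the genes that lead the sum, such as Hmox1 and Slc40a1. The part of macrophage abundance in the differences was not tested.

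**Figure D3:**
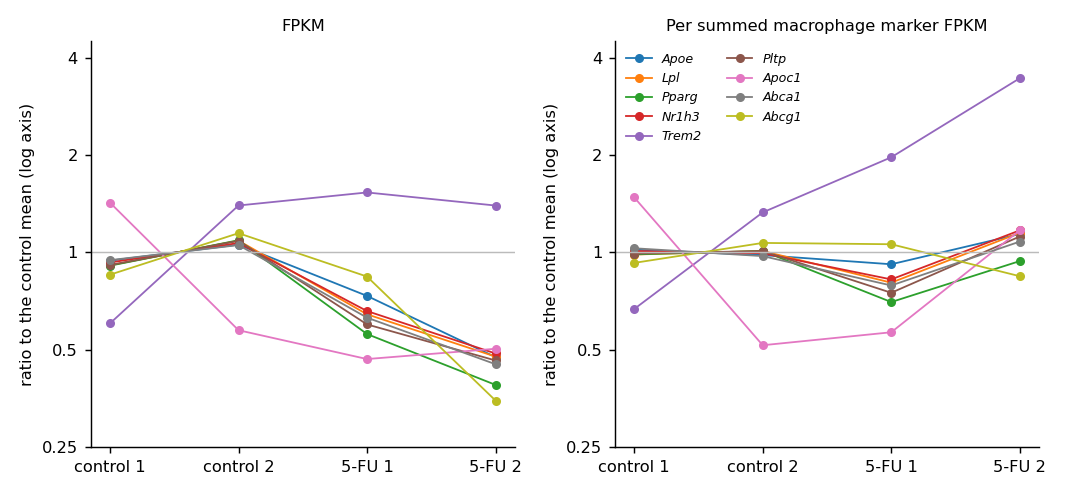
Each line joins the values of a gene in the 4 libraries, divided by its control mean (log axis), as FPKM on the left and per summed FPKM of 19 macrophage markers on the right; Gpnmb is left out for its low level. On the left every gene but Trem2 is below its control mean in both 5-FU libraries; on the right Apoe, Abca1, Abcg1, Nr1h3, Lpl and Pltp lie between 0.75 and 1.17 while Trem2 reaches 1.97 and 3.46.

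Cells other than macrophages can make these transcripts. The sort was for donor EGFP, and whether recipient cells, macrophages among them, were also in the sorted fraction was not tested. Markers of marrow fat were at or near 0, with 7 of 10 under 1 FPKM in every library, among them Adipoq, Plin1 and Lep. Lipe, the hormone-sensitive lipase gene on that list, had 2.86 to 8.10 FPKM. Fabp4, on that list but also made by macrophages, had 326.6 to 582.8 FPKM and led its summed level of 334.8 to 400.4 FPKM in control and 396.9 to 588.2 in 5-FU recipients. Of 8 hepatocyte markers 7 were under 1 FPKM in every library, Alb among them, and the sum was 0.417 to 2.85 FPKM. The stroma and endothelium list summed to 43.6 to 47.6 FPKM in control and 30.4 to 39.7 in 5-FU recipients. Other lineages moved with the groups too. Of 8 neutrophil markers 6 fell, and their sum went from 9640 to 12111 FPKM in control to 3221 to 3326 in 5-FU recipients. Of 6 erythroid markers 5 fell (sums of 482.5 to 674.4 and 57.1 to 69.7 FPKM), and of 5 tested B lineage markers 3 fell (344.0 to 350.3 and 157.7 to 189.2). Stem and progenitor markers summed to 401.6 to 500.1 FPKM in control and 424.3 to 608.3 in 5-FU recipients, with 1 of 10 higher (Ly6a). The part of these shifts in the lipid gene differences was not tested.

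The wider lipid pathways were followed in 10 lists of 139 further genes, 118 of them tested. Of these, 9 fell (7.63%) and 3 rose (2.54%), beside 4.67% and 8.23% of all tested genes, and their median was -0.36. For lysosomal lipid breakdown 6 of 12 fell, 0 rose and 6 did not pass, with a median of -0.83 and with 9 lower and 0 higher genes at an unadjusted p under 0.05 in limma. Gm2a, the activator of ganglioside breakdown, had 135.3 and 153.1 FPKM in controls and 77.2 and 62.4 after 5-FU and fell by 1.04 (SE 0.20, limma adjusted p = 0.0208). Hexa, a hexosaminidase subunit, fell by 1.05, and Asah1, acid ceramidase, by 1.07. Among the others that fell, Galc, the galactosylceramidase gene, had a log2 difference of -1.22 and Npc2, a lysosomal cholesterol carrier gene, one of -0.84. Lipa, the acid lipase that frees cholesterol from its esters, had 488.4, 517.9, 354.1 and 246.6 FPKM and did not pass (-0.77, limma adjusted p = 0.0746).

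Among the LXR partners and other LXR targets 1 of 13 fell and 12 did not pass, with a median of -0.37. The member that fell was Smpdl3a, a phosphodiesterase gene induced by LXR, at 122.4 and 129.0 FPKM in controls and 70.6 and 55.2 after 5-FU (-1.0, SE 0.20, limma adjusted p = 0.0234). Arl4c, a small GTPase gene, was at -0.86 and the LXR partner gene Rxra at -0.96, with adjusted p of 0.0918 and 0.111 in limma. The lipogenic LXR targets Srebf1 and Scd2 had differences of -0.37 and -0.14. In the cholesterol ester list 1 of 8 fell. It was Cyp27a1, which makes the oxysterol 27-hydroxycholesterol, with 65.6 and 56.8 FPKM in controls and 24.1 and 10.8 after 5-FU (-1.85, SE 0.34, limma adjusted p = 0.0192). Dgat2 and Nceh1 were at -0.91 and -0.62 and did not pass.

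Fatty acid uptake and synthesis genes had members that moved the other way. Cd36, a fatty acid and oxidised LDL receptor known as a PPARgamma target, was the 1 of 9 on its list that passed and was higher. It had 42.7 and 50.1 FPKM in controls and 103.8 and 73.0 after 5-FU, a rise of 0.90 (SE 0.23, limma adjusted p = 0.0440). Cd36 was at 20.9% and 20.4% of the Pparg level in control libraries and at 82.7% and 83.5% in 5-FU libraries, a ratio chosen after the values were seen. On the same list Acsl1 was at -0.70 and Hilpda at 0.46, and neither passed. In fatty acid synthesis 1 of 11 rose, Fasn, the fatty acid synthase gene, from 3.69 and 4.14 to 9.29 and 12.3 FPKM (1.25, SE 0.28, limma adjusted p = 0.0296). Acaca, which makes its substrate malonyl-CoA, was at 1.01 and the acetyl-CoA synthetase gene Acss2 at -1.28, and both missed the threshold.

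Cholesterol synthesis and receptor lists showed no calls. In cholesterol synthesis limma called 0 of 23, with 2 lower and 0 higher at an unadjusted p under 0.05 and a median of 0.03. Insig1, which holds back SREBP processing, was at -1.05 (limma adjusted p = 0.0596), Sc4mol (Msmo1) at -0.58 and Hmgcs1 at -0.65. Of 10 lipoprotein and scavenger receptors 0 passed in limma, and 0 had an unadjusted p under 0.05. Scarb1, the HDL receptor gene, was at -0.55, Lrp8 at 0.61 and Lrpap1 at -0.40. Of 6 tested apolipoproteins and lipases 0 passed and 2 were lower at an unadjusted p under 0.05. These were the intracellular lipase genes Lipe (-1.04, limma adjusted p = 0.0540) and Mgll (-0.81), with the LPL maturation factor gene Lmf1 at -0.55.

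Genes linked with Trem2 in lipid-laden macrophages were split. Of 19 tested, 1 rose, 0 fell and 18 did not pass, with 3 higher and 6 lower at an unadjusted p under 0.05 in limma and a median of -0.52. Spp1, osteopontin, was the riser, from 2.47 and 2.18 FPKM to 9.15 and 7.72 (1.50, SE 0.28, limma adjusted p = 0.0198). Ctsl, cathepsin L, was at -0.77 and did not pass. Among MiT/TFE factors and lysosome genes that accompany Gpnmb, 1 of 7 fell, Acp5, an acid phosphatase gene, from 94.2 and 130.4 to 64.2 and 38.8 FPKM (-1.13, SE 0.28, limma adjusted p = 0.0410). Tfe3 was at -0.82 and Atp6v0d2 at 0.97, and neither passed.

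**Figure D4:**
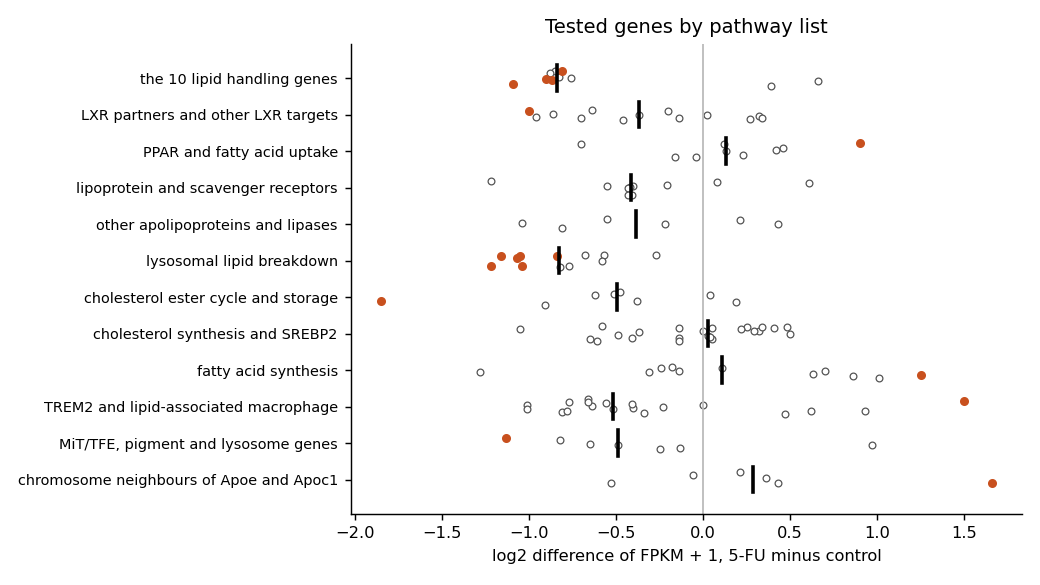
Log2 difference between 5-FU and control recipients of every tested gene, by list, with the 10 lipid handling genes on top; orange points have an adjusted p under 0.05 and black bars are list medians. Lysosomal lipid breakdown has 6 of 12 genes lower and a median of -0.83, beside medians of 0.03 for cholesterol synthesis and 0.11 for fatty acid synthesis.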

How the data were processed

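Values are FPKM as the authors deposited them, 1 table per library and 1 row per gene symbol. Per the submitters' processing notes, reads (75 bp, single end, SMART-Seq Ultra Low Input kit) went through TopHat2 2.0.13, Bowtie2 2.2.3, SAMtools 0.1.19 and Cuffnorm 2.2.1, with mm10 as the build. The annotation, strand setting and library normalization were not given in the sources used here. Per the file headers the 5-FU columns carry another day number than the file names, and groups follow the labels.

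Log2(FPKM + 1) was fitted with limma 3.58.1 in R 4.3.3 (group alone, eBayes with trend, two-sided) on all genes with at least 1 FPKM in at least 2 of 4 libraries, with Benjamini-Hochberg adjustment over all 11496 genes. The threshold was 0.05, with 2 residual and 5.62 prior degrees of freedom. An exact permutation test of 2 against 2 libraries cannot go below p = 0.333. The labels call the replicates biological and have cells sorted for every recipient, but they tie no library to a named animal. The p-values set each group difference against the spread between these libraries, which is estimated in large part from the other genes. The method was tested on simulated data, with 200 of 11496 genes changed per run and noise set by the mean level alone. There a log2 change of 2 was called in 95.4% of cases and a change of 1 in 20.0%. In the real data 12.9% of genes were called, so these shares do not give the power here. The members and lists were chosen with earlier results of these data known. All 10 members are named, with the 3 genes of smallest p in each pathway list, all chromosome neighbours and the 5 genes nearest Apoe. Any other named gene was picked with its values known. The 14 alternatives are described in the closing section. Rough read numbers are FPKM times transcript length over the estimated value of 1 read. Figures used matplotlib 3.10.9.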

Additional observations from a re-analysis of the deposited data

How the results depend on the processing

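The 4 lower members became 2 with a pseudocount of 0.1, on the TPM scale and with the replicate number as a replicate block, and 0 with no filter on low values (limma called 4 lower and 3 higher genes in all there, with 3680 at an unadjusted p under 0.05) or without the trend. Leaving out 1 library gave 0 to 7 lower and 0 to 1 higher members. The replicate numbers pair nothing that the labels name (same-numbered deviations correlated at -0.159 across genes), and under the block Abca1 and Nr1h3 had adjusted p of 0.0587 and 0.0721. Across the table the 537 lower and 946 higher genes became 299 and 548 without the trend, and leaving out 1 library gave 38 to 1876 lower and 88 to 2122 higher. The 9 lower genes of the wider lists, chromosome neighbours included, became 5 on the TPM scale, 1 without the trend and 0 with no filter, where the 4 higher became 0 too, and leaving out 1 library gave 0 to 47 lower and 0 to 7 higher. The cause of these moves was not tested. When 1 library is left out, the lone library is assumed to vary like the other group.

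All 8 lower members stayed below 0 under each of the 14 alternatives, and Trem2 stayed above 0, from 0.07 to 1.26. Gpnmb reversed to -1.08 without 5-FU replicate 1 and to -0.41 without control replicate 1, and it passed at 1.86 without 5-FU replicate 2. Pparg and Pltp each passed in 10 of 14 alternatives, Nr1h3 in 7, Abca1 in 6, Lpl in 4, Abcg1 and Apoe in 1, and Apoc1 and Trem2 in 0. Gpnmb passed in 1 of 13, since the 5 FPKM filter leaves it out. Precision is limited by 2 libraries per group, and Gpnmb rests on roughly 12 to 290 reads per library.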
